A study of Rhodotorula toruloides with 18 samples.

Results

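A strain of the yeast Rhodotorula toruloides lacking cbr1 was compared with its wild type after 8 h in medium without any carbon source. The comparison rests on 6 of the 18 libraries of the series, picked by their labels: 3 libraries of the cbr1 deletion strain and 3 of the wild type. Both strains are IFO0880 cells in which a hygromycin resistance cassette replaces yku70 (yku70::HygR), so the wild type is itself a yku70 mutant. In the deletion strain cbr1 is in addition replaced by a nourseothricin resistance cassette (yku70::HygR cbr1::NatR). Whether the deletion strain is 1 clone is not given in the sources used here. Cells growing exponentially in rich glucose medium at 28 degrees C were washed 3 times and placed at 0.1 OD per mL in 100 mL of yeast nitrogen base of pH 6.2. The same strains, in groups of 3 libraries each, were also kept for 8 h on 1% succinate or on 1% cellobiose, and those libraries are used below for comparison.

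R. toruloides is a basidiomycete that stores oil and grows on many carbon sources. Yeasts choose between carbon sources through transcription factors that switch on the genes for using one source and through carbon catabolite repression, which keeps such genes off while a preferred sugar is present. Cbr1 is the transcription factor that the series is about, and its title links the factor to carbon source use and to catabolite repression. Loss of yku70, a gene of DNA end joining, is commonly used in yeasts to make gene replacement efficient. Without carbon no sugar is taken up, and starved yeast cells live on internal stores.

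Expression was given for 8484 genes in TPM (a transcript level corrected for length, with every library brought to an equal total). The number of reads behind the values is unknown. Tests used the scale log2(TPM + 1) and the 7938 genes that averaged 1 TPM or more across the 18 libraries. A difference is the deletion strain minus the wild type. A gene was called when its absolute log2 difference was at least 1 and its Benjamini-Hochberg adjusted p from limma, a linear model fitted across all genes, was under 0.05. The files do not pair gene identifiers with names, and 0 of them could be found among 8171 reference genes of another strain (NP11). Genes are therefore named by identifier, 2 that were higher and 2 that were lower, and no role is given for them. For the same reason the cbr1 transcript itself was not analysed here. A gene was named only if its libraries without carbon did not overlap between the strains. For the named genes that trait therefore adds no support of its own.

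The libraries without carbon did not separate cleanly by strain. The median TPM of a library was 38.5, 37.2 and 28.2 in deletion replicates 1 to 3, against 36.9, 33.1 and 18.9 in wild type replicates 1 to 3. Replicate 3 was thus the lowest in each strain, and wild type replicate 3 was the lowest of all. On the first principal component, which held 80.7% of the variance, wild type replicate 3 lay at 78.0 and the other libraries between -41.1 and 10.6. The next component held 9.01% and had all deletion libraries above wild type replicates 1 and 2, but wild type replicate 3 at 5.52, close to deletion replicate 2 at 5.61. Across genes, whose values are not independent of each other, Pearson's r of log2(TPM + 1) was 0.957 to 0.985 among the deletion libraries, 0.920 to 0.980 among the wild type libraries and 0.857 to 0.984 over the 9 pairs of different strains. Deletion replicate 3 was closest to wild type replicate 2 (r = 0.984), against r = 0.972 at most with a library of its own strain. Wild type replicate 2 in turn reached r = 0.980 at most within the wild type.

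**Figure D1:**
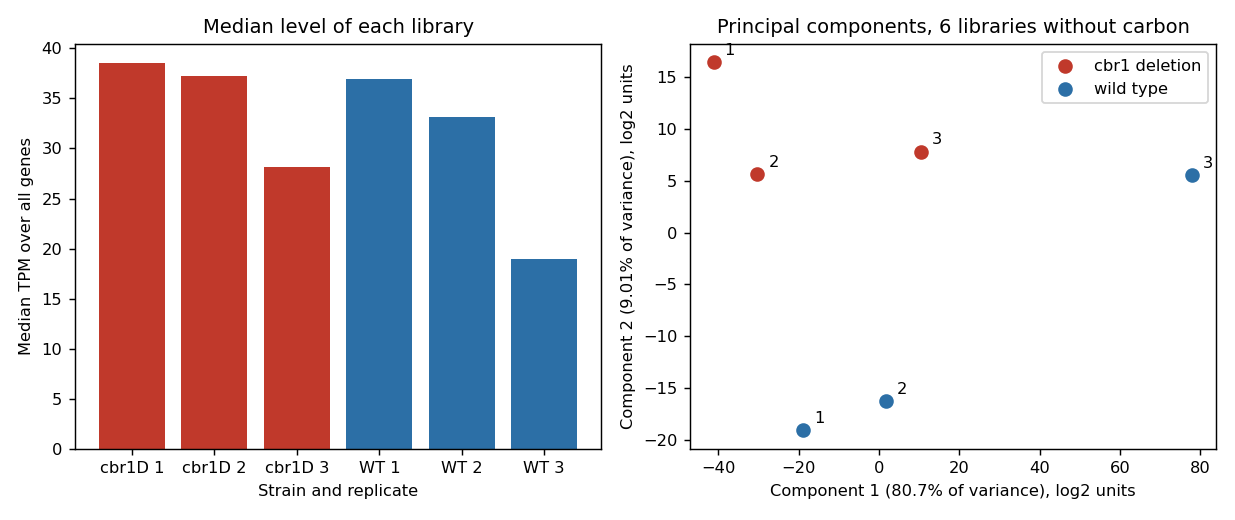
Left, the median TPM over all genes of each library without carbon (deletion libraries in red, wild type in blue). Right, the first and next principal components of log2(TPM + 1) over the tested genes, with each library as a point labelled by its replicate number; wild type replicate 3 lies at 78.0 on the first component, apart from the other libraries.

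In both strains the libraries of replicate 3 differed from those of replicates 1 and 2 in many of the same genes. The median log2 difference of replicate 3 from the mean of replicates 1 and 2 was -0.40 in the deletion strain and -0.82 in the wild type. Replicate 3 was lower by at least 1 for 284 genes in the deletion strain and 2829 genes in the wild type, with 229 genes in common. It was higher by at least 1 for 211 and 201 genes, with 102 in common. Across the tested genes the difference of replicate 3 had the same sign in the strains for 90.0% of genes. Genotype differences were for this reason also computed within each replicate number, by a fit of the 6 libraries alone that has the replicate number as block. The typical SD between replicates was 0.377 in the deletion strain and 0.614 in the wild type, while the differences within replicate numbers had a typical SD of 0.432, against 0.720 if the numbers carried no information.

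Few genes stood apart from the spread of unpaired libraries. Many more did so when same-numbered libraries were set against each other in a fit of the 6 libraries alone. Without the block, 6 genes were called (0.0756% of those tested), 1 higher (0.0126%) and 5 lower (0.063%). An unadjusted p under 0.05 was reached by 754 genes. With the block the count was 283 (3.57%), made up of 155 higher (1.95%) and 128 lower (1.61%) genes, and it took in all 6 genes of the first count. The same block fitted over all 18 libraries, which share 1 estimate of the spread, called 9 genes, 1 higher and 8 lower. The 6 libraries alone without the block called 2 genes, both lower. With no filter on low values the block over the 6 libraries called 3 genes, all lower. With a stricter filter, a mean of at least 5 TPM, it called 276 genes, 155 higher and 121 lower. The lists of 155 and 128 genes described below thus rest on leaving out genes of low level. The count without block was 2 when deletion replicate 1 or 2 was left out, 23 without deletion replicate 3, 13 when wild type replicate 1 was left out and 3 when wild type replicate 2 was. Without wild type replicate 3 it was 7, all lower, and 249 genes had an unadjusted limma p under 0.05. The count with the block was 568 without replicate 1 of both strains (390 higher and 178 lower). It was 169 without replicate 2 (125 higher and 44 lower) and 233 without replicate 3 (54 higher and 179 lower), so the balance of directions turned without replicate 3. Limma's treat test, which asks for a log2 difference beyond 1, called 2 genes without and 4 genes with the block.

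The balance between higher and lower genes depended on the scaling of the libraries. In TPM the tested genes had a median log2 difference of 0.27, and 74.3% of them had a positive one. Median-ratio scaling, which sets the typical gene level in all libraries, brought that median to -0.02. With this scaling the block called 313 genes (3.94%), 29 higher (0.365%) and 284 lower (3.58%). With quantile normalization the block called 56 higher and 167 lower genes. Without the block, 1 gene was higher and 18 lower after median-ratio scaling, and 2 were higher and 30 lower after quantile normalization. Called both with and without median-ratio scaling, in the same direction, were 147 of the 283 genes (1.85% of those tested), 29 higher and 118 lower.

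**Figure D2:**
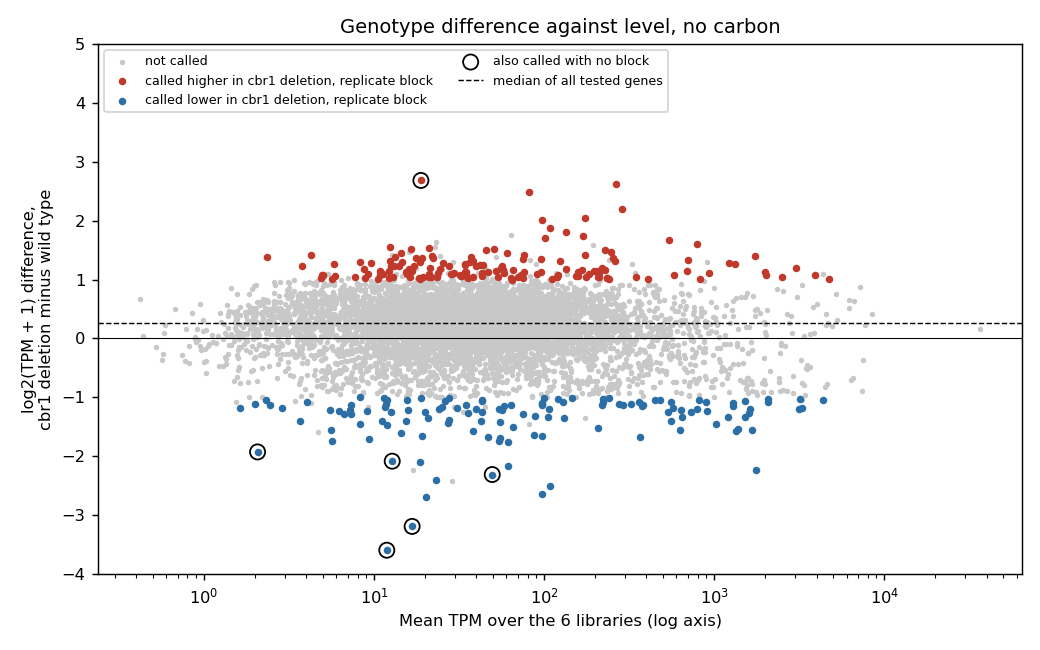
Log2(TPM + 1) difference, deletion minus wild type without carbon, against the mean TPM of the 6 libraries (log axis), 1 point per tested gene. Coloured points are the 155 genes called higher and the 128 called lower with the replicate block, rings mark the 6 genes also called with no block, and the dashed line is the median of all tested genes at 0.27.

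Among the genes that were lower in the deletion strain, RTO4_9797 had the largest difference. It was at 1.62, 0.535 and 0.843 TPM in deletion replicates 1 to 3, against 27.6, 19.4 and 21.3 TPM in wild type replicates 1 to 3. Every deletion library lay below every wild type library. The means were 0.999 ± 0.559 and 22.8 ± 4.31 TPM (SD, n = 3 each), a 22.8-fold higher level in the wild type. The log2 difference was -3.59 ± 0.45 (SE; limma adjusted p = 0.000427). With the block its limma adjusted p was 0.000245, and with a pseudocount of 0.1 TPM and no block the call was lost (limma adjusted p = 0.170).

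The transcript of RTO4_9797 was found mainly in the starved wild type. On succinate it was at 0.399, 0.0652 and 0.132 TPM in the deletion strain, while in the wild type 2 libraries were listed at 0 and replicate 3 held 5.08 TPM. On cellobiose 2 of the 3 libraries of each strain were listed at 0 and the highest value was 0.0385 TPM. The genotype difference was 0.00 ± 0.45 on cellobiose (SE), and it differed from that without carbon by 3.59 ± 0.64 (SE; limma interaction, adjusted p = 0.00664). With a pseudocount of 0.1 TPM that call was lost (limma adjusted p = 0.0731). Against succinate the interaction did not pass the threshold (2.98 ± 0.64, limma adjusted p = 0.240), but it did with a pseudocount of 5 TPM (limma adjusted p = 0.00432) and with array weights (limma adjusted p = 3.1e-10). Over all tested genes the interaction with cellobiose called 264 (3.33%). The interaction with succinate called 0 (0%) by limma, with 459 genes at an unadjusted p under 0.05, and 1068 with array weights. Without deletion replicate 3 on succinate it called 0, with 868 genes at an unadjusted p under 0.05, and the interaction of RTO4_9797 was 3.01 ± 0.70 (SE; limma adjusted p = 0.0719).

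RTO4_13588 had the next largest fall among the called genes. It was at 2.99, 2.27 and 1.88 TPM in deletion replicates 1 to 3, against 39.6, 35.5 and 18.3 TPM in wild type replicates 1 to 3. The groups did not overlap, and the means of 2.38 ± 0.563 and 31.1 ± 11.3 TPM (SD, n = 3 each) put the wild type 13.1-fold higher. The log2 difference was -3.19 ± 0.32 (SE; limma adjusted p = 2.58e-05). In each strain replicate 3 held the lowest value. In the other media the groups did not overlap either: on succinate the deletion libraries held 1.75 to 2.03 TPM against 17.4 to 30.2 TPM in the wild type, and on cellobiose 1.94 to 2.46 TPM against 20.1 to 41.3 TPM. The interactions were -0.20 ± 0.46 for cellobiose and 0.06 ± 0.46 for succinate (SE; limma adjusted p = 0.848 and 0.999). Its wild type means were 31.1 TPM without carbon, 24.5 TPM on succinate and 33.6 TPM on cellobiose.

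The gene called higher without block was RTO4_10020. It was at 53.4, 25.1 and 19.6 TPM in deletion replicates 1 to 3, against 10.9, 2.84 and 1.42 TPM in wild type replicates 1 to 3. The groups did not overlap, although values spread widely within each strain, with replicate 1 the highest and replicate 3 the lowest in both. Within replicate numbers the deletion strain was 4.91-fold, 8.85-fold and 13.8-fold higher. The log2 difference was 2.68 ± 0.45 (SE; limma adjusted p = 0.0147). This call was lost when deletion replicate 1 or 2, or wild type replicate 2 or 3, was left out, with limma adjusted p between 0.0514 and 0.169, and with a pseudocount of 0.1 TPM (limma adjusted p = 0.183). It was also lost in the 6 libraries without carbon fitted alone with no block (SE 0.58, limma adjusted p = 0.565). On cellobiose the gene was at 3.42, 3.61 and 1.32 TPM in the deletion strain, against 0.244, 0 and 0.220 TPM in the wild type (log2 difference 1.65 ± 0.45, SE; limma adjusted p = 0.00774). On succinate all libraries were under 1.18 TPM.

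RTO4_9847 had the largest difference among genes called higher with the block alone. It was at 531, 499 and 305 TPM in deletion replicates 1 to 3, against 169, 47.6 and 41.1 TPM in wild type replicates 1 to 3. Every deletion library lay above every wild type library, and wild type replicate 1 lay well above the other wild type libraries. The log2 difference was 2.62 with an SE of 0.64 without block (limma adjusted p = 0.216) and 0.28 with it (limma adjusted p = 0.00469). Without wild type replicate 1 it was also called with no block (limma adjusted p = 0.0404). On succinate the gene was at 122, 159 and 82.9 TPM in the deletion strain, against 20.5, 4.97 and 9.15 TPM in the wild type. There its log2 difference was 3.43 ± 0.64 (SE; limma adjusted p = 0.0531). On cellobiose the difference was larger than without carbon by 3.28 ± 0.91 (SE; limma interaction, adjusted p = 0.0495). That call was lost without any 1 of the deletion libraries, or without wild type replicate 1 or 2, with limma adjusted p between 0.0751 and 0.105. The deletion levels stayed high in all media, with means of 445, 121 and 284 TPM without carbon, on succinate and on cellobiose. The wild type means were 85.8, 11.6 and 6.95 TPM.

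**Figure D3:**
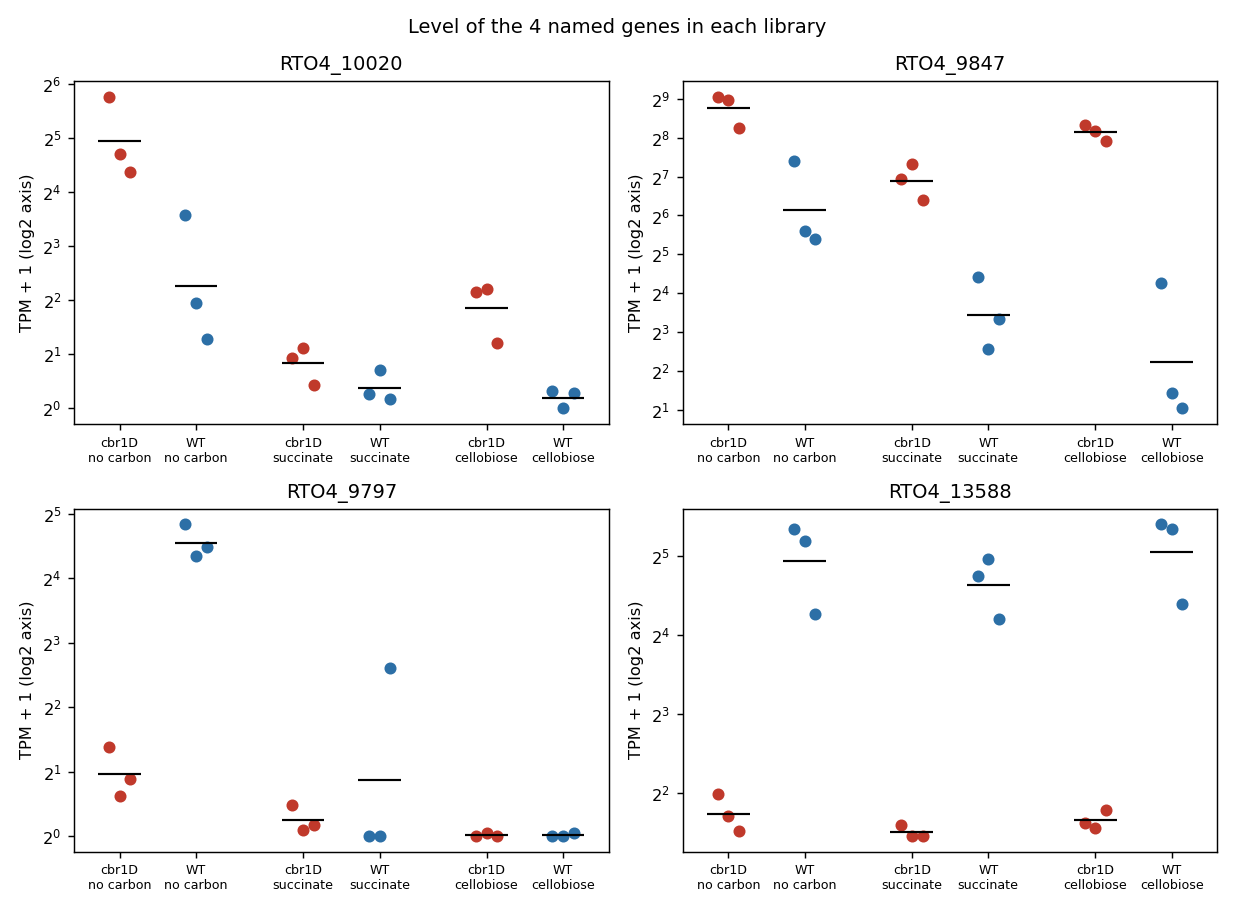
TPM + 1 of the 4 named genes (log2 axis) in every library of the 3 media, deletion libraries in red and wild type in blue, replicates 1 to 3 from left to right, with a line at the mean of the log2 values. RTO4_13588 is low in the deletion strain in every medium, RTO4_9797 is high in the wild type without carbon, and both RTO4_10020 and RTO4_9847 are higher in the deletion strain without carbon.

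The other 3 genes called without block were lower in the deletion strain and did not overlap between strains. One was at 17.9, 18.3 and 11.6 TPM in the deletion libraries, against 81.7, 106 and 61.9 TPM in the wild type libraries (log2 difference -2.31 ± 0.43, SE; limma adjusted p = 0.0379). Its genotype difference on cellobiose was 0.43 ± 0.43 (SE), and the interaction with cellobiose passed the threshold (2.74, limma adjusted p = 0.0171). Another was at 2.90, 5.81 and 3.69 TPM in the deletion libraries, against 11.8, 23.8 and 28.8 TPM in the wild type libraries (log2 difference -2.08 ± 0.39, SE; limma adjusted p = 0.0386). This one was also called lower on cellobiose (-1.92 ± 0.39, SE; limma adjusted p = 0.000898). The remaining gene was listed at 0 in deletion replicate 1 and was at 0.0767 and 0.879 TPM in the other deletion libraries, against 4.31, 3.68 and 3.47 TPM in the wild type (log2 difference -1.93 ± 0.29, SE; limma adjusted p = 0.0038). The gene with the identifier number just before it, too low over all media to be tested, was listed at 0 in deletion replicates 1 and 2 and held 0.377 TPM in replicate 3, against 3.95, 3.47 and 2.61 TPM in the wild type.

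Presence and absence of transcripts differed little. Of all 8484 genes, 7680 had at least 1 TPM in all 6 libraries and 337 were under 1 TPM in all. Under 1 TPM in all deletion libraries and at least 1 TPM in all wild type libraries were 7 genes, and the reverse held for 0 genes. The 4 genes listed at 0 in all deletion libraries and above 0 in all wild type libraries reached at most 2.37 TPM. For 1 gene, which reached 0.562 TPM, the zeros were in the wild type.

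The 155 genes called higher with the block differed by a median of 1.15 on the log2 scale, and 6 of them by at least 2. Their median level was 61.5 TPM in the deletion strain and 27.6 TPM in the wild type. All 155 were higher in the deletion strain within each replicate number, as were 51.0% of all tested genes. The 155 were picked by these same differences, so this agreement adds no support of its own. Median differences of the 155 were 0.93, 0.91 and 1.69 for numbers 1, 2 and 3. The difference was thus widest in replicate number 3, where the median over all tested genes was also highest, at 0.53, against 0.10 and 0.19 for numbers 1 and 2. All 155 genes were lower in wild type replicate 3 than in the mean of wild type replicates 1 and 2, as were 87.4% of all tested genes. The part that this shift of replicate 3 has in the calls was not tested. Without the libraries of replicate 3, 54 genes were called higher, and 47 of the 155 were among them. Deletion and wild type libraries did not overlap for 35 of the 155 genes, and over all tested genes they did not overlap for 646 (8.14%), 249 of them higher in the deletion strain (3.14%). Picking the 155 by differences in these same libraries favours a lack of overlap.

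The 128 genes called lower had a median log2 difference of -1.22, and 11 of them were lower by at least 2. Their median level was 31.4 TPM in the deletion strain and 87.1 TPM in the wild type. Within replicate numbers 1, 2 and 3 the median differences were -1.29, -1.44 and -1.07, so here number 3 did not have the widest gap. Most of the genes, 101 of 128, were higher in wild type replicate 3 than in the mean of replicates 1 and 2. Of all 7938 tested genes 997 were. Over the 128 genes the median difference of replicate 3 was 1.14 in the deletion strain and 0.98 in the wild type. The libraries did not overlap for 50 of the 128, and over all tested genes 397 were lower with no overlap (5%). The 128 were picked by differences in these same libraries, which favours a lack of overlap, so this adds no support of its own. Without the libraries of replicate 3, 179 genes were called lower, 105 of them among the 128.

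**Figure D4:**
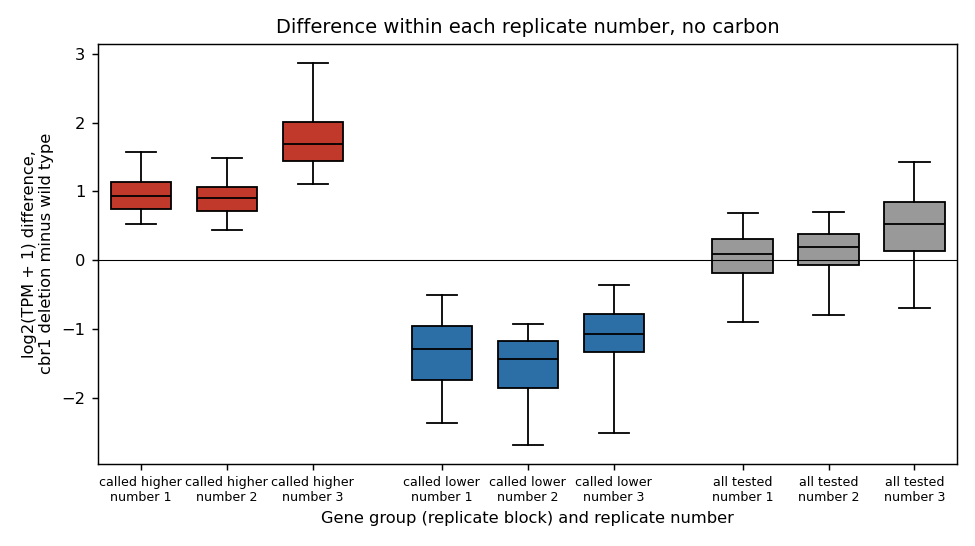
Log2(TPM + 1) difference, deletion minus wild type, within replicate numbers 1, 2 and 3, for the 155 genes called higher, the 128 called lower and all 7938 tested genes. Boxes span the quartiles with a line at the median and whiskers run over the central 90% of genes; the median of all tested genes is 0.10, 0.19 and 0.53 in numbers 1, 2 and 3.

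Single genes with large differences show how the replicate numbers entered. A gene with high levels was at 177, 235 and 2385 TPM in deletion replicates 1 to 3, against 919, 2736 and 4105 TPM in wild type replicates 1 to 3. Its ranges overlapped, yet each deletion library was below the wild type library of the same number (limma adjusted p = 0.503 without and 0.0202 with the block). Another was at 23.3, 39.5 and 25.4 TPM in the deletion strain, against 198, 280 and 83.9 TPM in the wild type, with no overlap (limma adjusted p = 0.338 without and 0.00366 with the block). Of the 11 genes lower by at least 2, 8 had no overlap between the strains, and of the 6 higher by at least 2, 4 had none. Choosing genes by large differences in these same libraries favours this. Over all tested genes 5% were lower and 3.14% higher with no overlap.

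Calls were most frequent among the genes of highest level. With the block, 27 of the 161 genes that averaged 1000 TPM or more in these 6 libraries were called (16.8%), 9 higher and 18 lower, against 3.57% of all tested genes. Between 100 and 1000 TPM the share was 5.45% of 1394 genes, and between 10 and 100 TPM it was 2.76% of 5250 genes. Between 1 and 10 TPM it was 3.16% of 1109 genes, so the share did not rise steadily with level. The median log2 difference was -0.25 for the genes of at least 1000 TPM and 0.29 for those between 10 and 100 TPM. After median-ratio scaling 1 of the 161 abundant genes was higher and 38 were lower, 24.2% in all, against 2.65% between 10 and 100 TPM and 3.34% between 1 and 10 TPM, so the high share held and the direction shifted further to lower levels.

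The most abundant transcript was the same in both strains and did not differ beyond its spread, at 28015, 31362 and 57573 TPM in the deletion strain and 29598, 24809 and 49199 TPM in the wild type (log2 difference 0.16 ± 0.53, SE; limma adjusted p = 0.878). Replicate 3 held the highest value in each strain. Of the 10 most abundant genes by mean, 4 were shared by the strains, and of the 100 most abundant, 73 were shared. Among the 10 most abundant genes of the wild type, log2 differences ran from -1.04 to 0.42. The lowest belonged to the gene ranked 8 in the wild type and 39 in the deletion strain, which was at 1318, 2239 and 5055 TPM in the deletion strain, against 2684, 4709 and 10233 TPM in the wild type (limma adjusted p = 0.503 without and 0.0199 with the block).

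The genes called without carbon were then followed in the libraries of the other media, which share no library with the 6 used to call them. Calls there came from the fit over all 18 libraries, so their spread and the filter on level also drew on those 6 libraries. On cellobiose, 127 of the 155 genes called higher without carbon were also called higher in the deletion strain (81.9%), and 1 was called lower. Over all tested genes 19.9% were called higher there. The median log2 difference of the 155 genes was 2.15 on cellobiose, against 0.22 over all tested genes. Limma's interaction with cellobiose called 5 of the 155 genes, against 3.33% of all tested genes. In point estimate, the difference on cellobiose was larger than that without carbon for 126 of the 155. Their share called higher on cellobiose was 86.2% of 29 genes with median-ratio scaling in both media, against 14.8% of all tested genes so scaled, and 83.3% of the 54 genes called without replicate 3.

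Of the genes called lower without carbon, 40 of the 128 were called lower on cellobiose (31.3%) and 6 higher, while 9.15% of all tested genes were called lower there. Their median log2 difference on cellobiose was -0.65, and 89 of the 128 had a negative one, against 40.7% of all tested genes. With median-ratio scaling in both media the share called lower was 33.5% of 284 genes, against 13.3% of all tested genes. All 6 genes higher by at least 2 without carbon were called higher on cellobiose, and of the 11 lower by at least 2, 4 were called lower there and 0 higher.

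**Figure D5:**
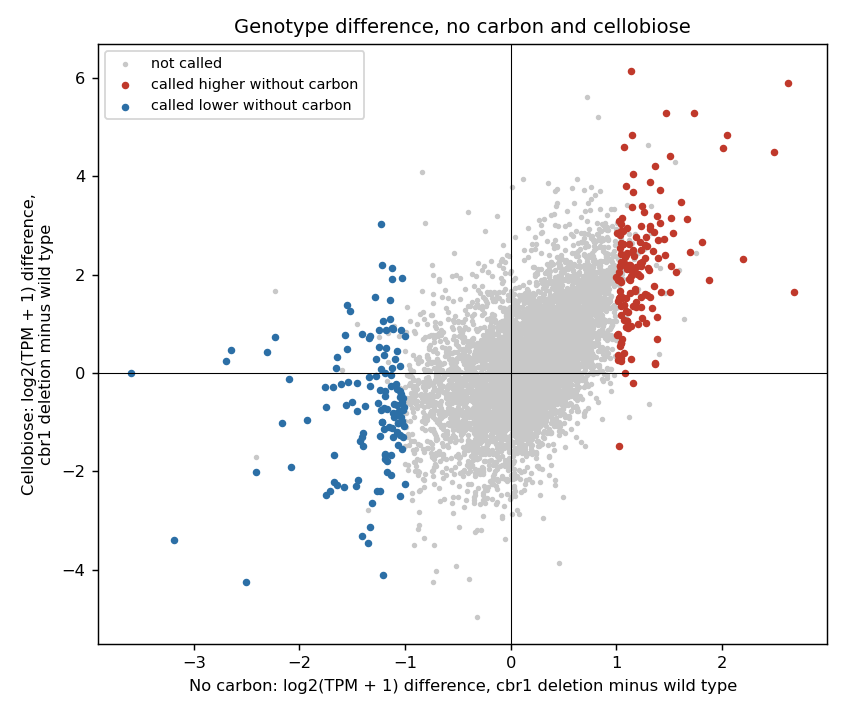
Log2(TPM + 1) difference, deletion minus wild type, without carbon (x axis) and on cellobiose (y axis), 1 point per tested gene. Of the 155 genes called higher without carbon (red) 152 lie above 0 on cellobiose, and of the 128 called lower (blue) 89 lie below 0.

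On succinate the result depended on deletion replicate 3 of that medium. That library reached r = 0.954 at most with its own group and r = 0.987 with a wild type library on succinate. It was thus closer to the other strain than to its own, as was deletion replicate 3 without carbon. Counts are given with and without the succinate library. With all libraries, 1 of the 155 genes called higher without carbon was called higher on succinate, where 0.0126% of all tested genes were called higher. Of the 128 called lower, 2 were called lower there, against 0.0252% of all tested genes. Without that library the counts were 43 of 155 (27.7%, against 13.1% of all tested genes) and 10 of 128 (7.81%, against 0.655%), and 3 of the 128 were then called higher. Leaving out a deletion library because it resembles the wild type favours wider differences between the strains. The rise in counts without that library therefore adds no support of its own. In sign, 147 of the 155 were higher on succinate with all libraries, against 85.3% of all tested genes, and 77 of the 128 were lower, against 14.7%. Without that library 150 of the 155 were higher, against 82.6%, and 84 of the 128 were lower, against 17.4%. The median log2 difference on succinate was 0.78 for genes called higher, -0.33 for genes called lower and 0.47 for all tested genes, and 1.11, -0.41 and 0.58 without that library.

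Identifiers with consecutive numbers recurred among the genes called higher. Of the 155 genes, 29 had an identifier number next to that of another of the 155 (18.7%), while 3.54% of all tested genes were next to one of them. For genes called lower it was 8 of 128 (6.25%), against 2.97% of all tested genes. Whether the numbers follow the order of genes in the genome is not given in the sources used here. The numbers just before RTO4_9847 are an example. The gene one number before was at 159, 146 and 102 TPM in the deletion strain, against 50.2, 16.3 and 14.3 TPM in the wild type, a log2 difference of 2.49 ± 0.26 with the block (SE; limma adjusted p = 0.0046). The next gene down was at 307, 262 and 207 TPM in the deletion strain, against 108, 64.1 and 63.8 TPM in the wild type, a log2 difference of 1.73 ± 0.17 with the block (SE; limma adjusted p = 0.00366). Neither was called without the block (limma adjusted p = 0.110 and 0.214). All wild type libraries of these genes lay below all deletion libraries, and in each of them wild type replicate 1 was the highest of the wild type. On cellobiose the log2 differences of these neighbours were 4.49 and 5.28. The gene one number above RTO4_9847 did not pass the threshold, at 36.0, 56.2 and 31.1 TPM in the deletion strain and 46.1, 28.2 and 23.2 TPM in the wild type.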

How the data were processed

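Poly-A enriched RNA of 18 yeast cultures (2 strains, 3 media, 3 replicates each) was sequenced by Illumina methods, per the labels' protocols. The authors deposited TPM values, 1 column per library, each summing to 1000000. Salmon 1.10.0 appears in the submitters' processing notes. The sources used here name no genome build, annotation or gene lengths. Read numbers cannot be had from TPM, so depth is unknown and no limit that needs it is given.

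From the TPM, log2(TPM + 1) was computed for genes averaging 1 TPM or more. limma 3.58.1 (R 4.3.3, trend) was fitted with 1 mean per group over 18 libraries, and within replicate number over the 6 libraries without carbon. p-values were adjusted over all 7938 genes. Scripts were tested on simulated data. The labels give replicate numbers 1 to 3 in each strain and call them biological replicates. Deviations of same-numbered libraries from their strain means had r = 0.61, 0.24 and 0.69 without carbon, each over 0.1, so the numbers were taken to pair the libraries. Number 2 did not match best with itself: deletion 2 with wild type 1 had 0.26 and deletion 1 with wild type 2 had 0.35, against its 0.24. Before strain means were subtracted, the median r between strains was 0.964 for same-numbered pairs and 0.961 for the other pairs. The highest r between strains, 0.984, belonged to different numbers. With 3 against 3 libraries, an exact permutation test cannot give a p under 0.1, so none is printed for single genes. The genes named were those called without block, with no overlap and 10 TPM or more on average in either strain, by the largest difference, up to 2 in each direction, filled from genes called with the block. The comparison, this rule and the lists were chosen with earlier results of these data known. Alternatives were pseudocounts of 0.1 and 5 TPM, no filter or a mean of at least 5 TPM, scalings, array weights, treat and leaving out libraries.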

Additional observations from a re-analysis of the deposited data

Results flagged for a closer look

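Both results here were singled out because the genotype difference of a named gene on cellobiose differed from that without carbon by limma's interaction term. For RTO4_9797 the difference between the media was 3.59 (limma adjusted p = 0.00664): the gene was lower in the deletion strain without carbon and near or at 0 TPM in both strains on cellobiose. Its call was lost in 1 of 13 alternatives, a pseudocount of 0.1 TPM (limma adjusted p = 0.0731). For RTO4_9847 it was 3.28 (limma adjusted p = 0.0495), with the deletion strain higher in both media and by more on cellobiose. The call of RTO4_9847 was lost in 7 of 14 alternatives, with limma adjusted p up to 0.105.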

How the results depend on the processing

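Without block, 6 genes were called. The replicate block in 6 libraries gave 283, the 6 libraries without block 2, pseudocount 0.1 TPM 1, median-ratio scaling 19, quantile normalization 32, array weights 342 (88 higher, 254 lower) and treat 2. Leaving out single libraries gave 2 to 23. With the block the count of 283 became 2 with no replicate block, 9 with the block within each medium over 18 libraries (1 higher, 8 lower), 183 with pseudocount 5 TPM, 3 with no filter, 4 with treat and 679 with no minimum log2 difference. Leaving out replicate numbers gave 169 to 568. Median-ratio scaling without replicate 3, chosen after seeing the data, gave 256 (21 higher, 235 lower). The cause of these shifts was not tested.

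All 17 alternatives kept the call of RTO4_13588 (limma adjusted p up to 0.0239), and 15 of 16 that of RTO4_9797, lost with pseudocount 0.1 TPM. RTO4_10020 kept its call in 11 of 17, and RTO4_9847 gained one in 4 of 17. No direction without carbon reversed for these 4 genes. Of the 6 interactions that were not called, 3 changed sign. For RTO4_10020 with cellobiose it was 0.54 with pseudocount 0.1 TPM. For RTO4_13588 with cellobiose it was 0.057 with quantile normalization, and leaving out single libraries gave -0.40 to 0.13. For RTO4_13588 with succinate it was -0.025 with pseudocount 0.1 TPM, -0.022 with array weights and -0.27 with median-ratio scaling, and leaving out single libraries gave -0.15 to 0.39. The interaction of RTO4_9797 with cellobiose lost its call with pseudocount 0.1 TPM (limma adjusted p = 0.0731). Interactions with succinate gained calls: RTO4_9797 with pseudocount 5 TPM (limma adjusted p = 0.00432) and array weights (3.1e-10), RTO4_10020 with array weights (3.61e-07) and without wild type replicate 1 (0.0294), and RTO4_9847 with array weights (0.0365). The shares of genes called alike on cellobiose ran from 76.9% to 86.2% for higher and from 21.9% to 38.9% for lower genes over the 5 other lists tried, all chosen after seeing the data.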
